A study of Mus musculus with 10 samples.

Results

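Group 3 innate lymphoid cells act on their neighbours through a small set of secreted or surface proteins, and 6 genes for such proteins are described here: Tnfsf11 (RANKL), Lta and Ltb (lymphotoxin alpha and beta), Tnf, Csf2 (GM-CSF) and Ccl20. The measurement was chromatin accessibility by ATAC-seq, in which the Tn5 enzyme cuts and tags open DNA. A peak, meaning a stretch of open chromatin called by the submitters, was counted with a gene when that gene had the nearest protein-coding gene body and lay within 50 kb. By this rule 21 of the 36251 peaks tested belonged to the 6 genes: 9 to Tnfsf11, 7 to Csf2, 2 to Lta and 1 each to Ltb, Tnf and Ccl20. Of the farthest peaks inside the limit, that of Tnfsf11 lay 48486 bp and that of Csf2 45017 bp from the gene body, and no peak between 50 and 200 kb had one of the 6 as its nearest gene.

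Innate lymphoid cells had been sorted from lamina propria of the small intestine of C57BL/6 mice. All 4 groups carried Id2creERT2, a tamoxifen-inducible Cre driven from Id2, and the tdRFP reporter, and all received tamoxifen in the diet for several weeks. The Control group (n = 3 libraries) had no floxed transcription factor gene, RORgt-KO (n = 2) had floxed alleles for RORgt, RORgt-Tbet-KO (n = 2) had those and Tbx21f/f, and RORgt-RORa-KO (n = 3) had those and Roraf/f. Each library was a biological replicate made from 1 mouse or from 2 or 3 pooled mice. The sources used here do not give the sort markers, age, sex, batches or deleted exons. Id2 is active across innate lymphoid subsets, so the Cre is not limited to group 3 cells, and the subsets kept by the sort are not known here. A lower peak in a bulk sample can reflect fewer cells in which the site is open or less opening per cell, and these cannot be told apart.

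RANKL, which lymphoid tissue inducer-like cells carry, binds RANK. The ligand, whatever its cell source, is known for inducing M cells over Peyer's patches and for lymph node formation. Membrane lymphotoxin, built of lymphotoxin alpha and beta chains, signals through the lymphotoxin beta receptor to stromal and epithelial cells, while secreted lymphotoxin alpha and TNF use the TNF receptors. GM-CSF made by group 3 cells acts on gut macrophages and dendritic cells, and CCL20 is the ligand of CCR6, a receptor carried by the lymphoid tissue inducer-like cells themselves.

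The gene starts of Tnfsf11, Ltb and Ccl20 are printed here because each held a match to a searched motif in the 250 bases before its start. The sequences are the RefSeq sequences of GRCm38.p6, 5′ to 3′ on the strand of the gene, at chr14:78308044-78308293 on the minus strand for Tnfsf11, chr17:35194257-35194506 on the plus strand for Ltb and chr1:83116516-83116765 on the plus strand for Ccl20. Capitals mark the matches.
Tnfsf11: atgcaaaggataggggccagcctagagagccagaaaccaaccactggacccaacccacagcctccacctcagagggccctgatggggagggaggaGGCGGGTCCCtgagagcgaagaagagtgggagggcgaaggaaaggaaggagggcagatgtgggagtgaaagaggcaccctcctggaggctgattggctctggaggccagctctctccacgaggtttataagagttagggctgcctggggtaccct
Ltb: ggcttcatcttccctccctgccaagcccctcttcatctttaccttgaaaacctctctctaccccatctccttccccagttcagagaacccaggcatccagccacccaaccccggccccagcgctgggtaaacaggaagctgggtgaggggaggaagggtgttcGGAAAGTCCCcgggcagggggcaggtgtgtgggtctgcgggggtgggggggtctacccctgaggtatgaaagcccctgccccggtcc
Ccl20: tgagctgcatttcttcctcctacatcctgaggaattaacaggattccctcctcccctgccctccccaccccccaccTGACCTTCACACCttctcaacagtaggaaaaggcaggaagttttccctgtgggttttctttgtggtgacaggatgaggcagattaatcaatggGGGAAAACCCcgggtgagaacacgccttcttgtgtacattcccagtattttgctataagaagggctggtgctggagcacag
Exact letters were searched on both strands: AGGTCA, a core site read by ROR factors and other nuclear receptors; GGTGTGA, a T-box core site; TGANTCA, an AP-1 site; and the kappaB site, taken as GGGA, any 4 bases, then CC. Of 27025 mouse promoters of this length, 13.8% held AGGTCA, 3.31% GGTGTGA, 6.87% TGANTCA and 17.3% the kappaB letters. The capitals in Tnfsf11 and Ltb are a kappaB match on the opposite strand. In Ccl20 the first capitals hold AGGTCA and GGTGTGA, both on the opposite strand and directly next to each other, and the second are a kappaB match. Both of AGGTCA and GGTGTGA occurred in 170 promoters (0.629%), and side by side as in Ccl20 in 1. The side-by-side count was made after the match had been seen. The promoters of Lta, Tnf and Csf2 held none of the 4 motifs. An accessible peak covered all 250 bases of the Tnfsf11 window and 161 of the Ltb window, whereas no peak of the table reached the Ccl20 window, so for Ccl20 the data speak of a distal site only. Sequences of the distal peaks were not analysed here.

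Values are log2 scaled reads per peak as deposited, and libraries are always listed in the order of their replicate numbers. Libraries held 2271585 to 5047436 reads in peaks, with a median of 37 to 73 reads in a peak. The RORgt-Tbet-KO libraries were the deepest pair, at 4580787 and 5047436 reads, and RORgt-RORa-KO replicate 2 was the shallowest library. A peak was called different when limma, fitted to all 36251 peaks and all 10 libraries, gave a Benjamini-Hochberg adjusted p under 0.05. Among 14 peaks assigned to Rora, 3 were higher and 0 lower in RORgt-RORa-KO than in Control, and among 3 assigned to Tbx21, 2 were higher and 0 lower in RORgt-Tbet-KO, so these peaks gave no check of the deletions. All 8 innate lymphoid marker genes examined had a peak. Their summed level in RPM (reads scaled to the total reads in peaks of the library) was 1395 to 1461 in Control. It was 1424 to 1477 in RORgt-KO, 1708 to 1773 in RORgt-Tbet-KO and 1424 to 1630 in RORgt-RORa-KO. Of the 45 peaks of the list, 4, 14 and 9 were higher in these groups, beside 5.19%, 11.3% and 15.1% of all peaks. Lower were 3, 4 and 6, beside 7.12%, 11.3% and 16.1%. The summed level of the B cell list, with peaks at 3 of 6 genes (Blk, Ebf1, Pax5), was 242 to 280 RPM in Control and 165 to 169, 167 to 200 and 136 to 171 in the RORgt-KO, the RORgt-Tbet-KO and the RORgt-RORa-KO group. Ms4a1 and Cd79a had no peak in the table. Ranges for the T cell list (4 of 6 genes with a peak) were 80.2 to 84.2 in Control and 74.5 to 82.6, 85.8 to 107 and 106 to 121 in the knockouts in the same order, and for the epithelial list (3 of 6) 110 to 120, 142 to 147, 162 to 175 and 153 to 161. The myeloid list (4 of 6) gave 59.4 to 77.9, 85.6 to 90.5, 75.1 to 81.4 and 86.4 to 95.3, and the stromal and endothelial list (3 of 5) 215 to 249, 234 to 244, 306 to 316 and 252 to 285. In RORgt-KO and RORgt-RORa-KO, genes of the T cell, epithelial and stromal lists did not all move the same way. Cd5 of the T cell list, Krt8 of the epithelial list and Pdgfrb of the stromal list had lower peaks only there. In the same 2 groups Cd3e and Epcam had higher peaks only. In RORgt-Tbet-KO, Cd3e, Cdh1, Pdgfrb and Pecam1 had higher peaks only, Cd28 lower only and Cd5 both. In all 3 knockouts Blk, Ebf1 and Pax5 had lower peaks only, and Spi1 of the myeloid list higher peaks only. The part of these markers in the results was not tested.

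At each of Tnfsf11, Csf2 and Ccl20, 1 distal site was less accessible in every knockout group than in Control, while sites at the lymphotoxin and TNF genes were more accessible in RORgt-Tbet-KO. In RORgt-KO 3 of the 21 peaks were called, all lower, where 12.3% of all peaks were called (5.19% higher, 7.12% lower). In RORgt-Tbet-KO 9 were called, 6 higher and 3 lower, where 22.6% of all peaks were called (11.3% higher, 11.3% lower). Leaving out either RORgt-Tbet-KO library left 1 library in the group, and fewer peaks were then called, both among the 21 and among all peaks. Among the 21, mainly the higher calls were lost. In RORgt-RORa-KO 9 were called, 2 higher and 7 lower, where 31.2% of all peaks were called (15.1% higher, 16.1% lower). The median log2 difference from Control over the 21 peaks was 0.01, 0.40 and -0.11 in the 3 knockouts in this order, and over all peaks 0.02, 0.01 and 0.02. The 3 comparisons share their control libraries. Lower in all 3 knockouts were 3 peaks (1 each of Tnfsf11, Csf2 and Ccl20; background 5.1%), none was higher in all 3 (3.54%), and 7 were called in none of them. The moderated F test over the 4 groups called 9 of the 21, beside 30.7% of all peaks.

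The calls are given here by distance. Of the 9 peaks within 10 kb of a gene body, 0 were lower in any knockout, and 0, 5 and 1 were higher in the RORgt-KO, the RORgt-Tbet-KO and the RORgt-RORa-KO group. Of the 12 peaks between 10 and 50 kb, 3, 3 and 7 were lower and 0, 1 and 1 higher. Among all peaks, the percentages called lower were 5.67, 9.39 and 14.2 within 10 kb, and 9.61, 14.1 and 18.6 between 10 and 50 kb. The percentages called higher were 4.99, 11.5 and 14.6 within 10 kb, and 6.40, 12.1 and 19.0 between 10 and 50 kb. The difference between the distance classes was not tested for the 21 peaks. In the same order, library values of the knockout and of Control did not overlap at 10, 17 and 11 of the 21 peaks, against 40.1%, 52.6% and 39.4% of all peaks.

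Tnfsf11 lies on the minus strand of chromosome 14, from 78277446 to 78308043 (GRCm38), with no protein-coding neighbour within 184203 bp. Its 9 peaks ran from 66.1 kb downstream to 48.9 kb upstream of the start site, each distance being that of the peak's centre. The site 53.7 kb downstream was lower in all 3 knockouts, and those at 63.0 and 66.1 kb were lower in RORgt-RORa-KO. The start site and a site at the gene's end were higher in RORgt-Tbet-KO.

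The Tnfsf11 peak with the smallest F test p lay 53.7 kb downstream of the start site, between genes (chromosome 14, 78254051 to 78254614). Its values were 6.83, 6.15 and 6.00 for Control, 4.87 and 4.11 for RORgt-KO, 4.30 and 3.99 for RORgt-Tbet-KO, and 4.39, 2.82 and 3.30 for RORgt-RORa-KO. These stand for 40 to 88 reads per library in Control and for 4 to 24 in the 7 knockout libraries. Every knockout library was below every control library, and the knockout groups overlapped one another. The group means were 6.33 ± 0.44 (SD, n = 3), 4.49 ± 0.54 (n = 2), 4.15 ± 0.22 (n = 2) and 3.50 ± 0.81 (n = 3). The peak was 3.57-fold lower than Control in RORgt-KO (log2 difference -1.84, SE 0.47, limma adjusted p = 0.00813), 4.53-fold lower in RORgt-Tbet-KO (-2.18, SE 0.47, adjusted p = 0.00112) and 7.08-fold lower in RORgt-RORa-KO (-2.82, SE 0.42, adjusted p = 5.92e-06). The direct difference of RORgt-RORa-KO from RORgt-KO, -0.99 (95% interval -1.94 to -0.03), did not pass the test over all peaks (limma adjusted p = 0.38). The RORgt-KO call was lost without Control replicate 1 (-1.59, limma adjusted p = 0.0575) and without RORgt-KO replicate 2 (-1.46, adjusted p = 0.16).

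A weaker site farther out, at 63.0 kb, followed the same order of groups. Its values were 5.23, 4.28 and 4.14 for Control, 3.45 and 3.97 for RORgt-KO, 3.23 and 3.33 for RORgt-Tbet-KO, and 3.29, 1.82 and 2.43 for RORgt-RORa-KO. All 7 knockout libraries lay below the controls, but only RORgt-RORa-KO passed the test, 4.10-fold lower (-2.04, SE 0.58, limma adjusted p = 0.00801), from 2 to 7 reads per library against 11 to 29. The differences were -0.83 in RORgt-KO (limma adjusted p = 0.481) and -1.27 in RORgt-Tbet-KO (adjusted p = 0.168). Without Control replicate 1 the RORgt-RORa-KO call was lost (limma adjusted p = 0.0611). The outermost peak, at 66.1 kb, was lower in RORgt-RORa-KO by -2.26 (SE 0.78, limma adjusted p = 0.028) on 1 to 8 reads per library against 9 to 20 in Control. That call was lost without Control replicate 1 (limma adjusted p = 0.0727) or 2 (0.11) and without RORgt-RORa-KO replicate 1 (0.159) or 3 (0.0668). Over the 10 libraries, which share the group differences and the depth, the peaks at 63.0 and 53.7 kb had r = 0.923, and the peak at 53.7 kb and the start site r = 0.252.

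The Tnfsf11 start site peak (78307076 to 78308336), where the printed promoter lies, stood at 7.69, 7.53 and 7.48 for Control, 7.69 and 7.62 for RORgt-KO, 8.15 and 8.11 for RORgt-Tbet-KO, and 7.25, 6.93 and 7.35 for RORgt-RORa-KO. Both RORgt-Tbet-KO libraries were above and all 3 RORgt-RORa-KO libraries below every other library. The RORgt-Tbet-KO level was 1.93-fold that of RORgt-RORa-KO (RORgt-RORa-KO minus RORgt-Tbet-KO -0.95, 95% interval -1.35 to -0.56, limma adjusted p = 0.00154). Against Control, RORgt-Tbet-KO was 1.48-fold higher (0.56, SE 0.19, limma adjusted p = 0.035), RORgt-KO differed by 0.08 (adjusted p = 0.849) and RORgt-RORa-KO by -0.39 (adjusted p = 0.0854). The call against Control was lost without Control replicate 2 (limma adjusted p = 0.0794) or 3 (0.0634), without RORgt-Tbet-KO replicate 1 (0.216) or 2 (0.184), without the variance trend (0.0846) and with reads thinned to equal depth (0.0744). The call between the 2 double knockouts was lost without RORgt-Tbet-KO replicate 1 (limma adjusted p = 0.0523).

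Just past the end of Tnfsf11, 391 bp beyond the gene and 31.6 kb from its start, a peak went the other way from the distal sites. It stood at 6.07, 6.02 and 6.07 for Control, 6.26 and 6.56 for RORgt-KO, 7.13 and 6.97 for RORgt-Tbet-KO, and 6.51, 6.55 and 6.43 for RORgt-RORa-KO. Every knockout library was above the controls. RORgt-Tbet-KO was 2.00-fold higher (1.00, SE 0.23, limma adjusted p = 0.00243), while RORgt-KO (0.36, adjusted p = 0.374) and RORgt-RORa-KO (0.44, adjusted p = 0.109) did not pass. The RORgt-Tbet-KO call was lost without its replicate 1 (limma adjusted p = 0.072). Of the other Tnfsf11 peaks, that 48.9 kb upstream was higher in RORgt-Tbet-KO (0.67, SE 0.24, limma adjusted p = 0.04) and that 12.2 kb upstream was lower in RORgt-RORa-KO (-0.48, SE 0.18, adjusted p = 0.0469). Both calls lay near the threshold. The first was lost without Control replicate 2 or 3, either RORgt-KO library, either RORgt-Tbet-KO library or RORgt-RORa-KO replicate 1 (limma adjusted p = 0.051 to 0.239), and the second without any 1 library other than RORgt-RORa-KO replicate 3 (0.0506 to 0.173). The first was also lost with quantile normalization (limma adjusted p = 0.0539) and without the variance trend (0.158), and the second with voom (0.0955), without the trend (0.0845), with library weights (0.0873), with only the 2 groups (0.0946) and with start-site scaling (0.0545). The peaks at 10.2 kb inside the gene and 22.6 kb upstream were called in no comparison with Control.

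**Figure D1:**
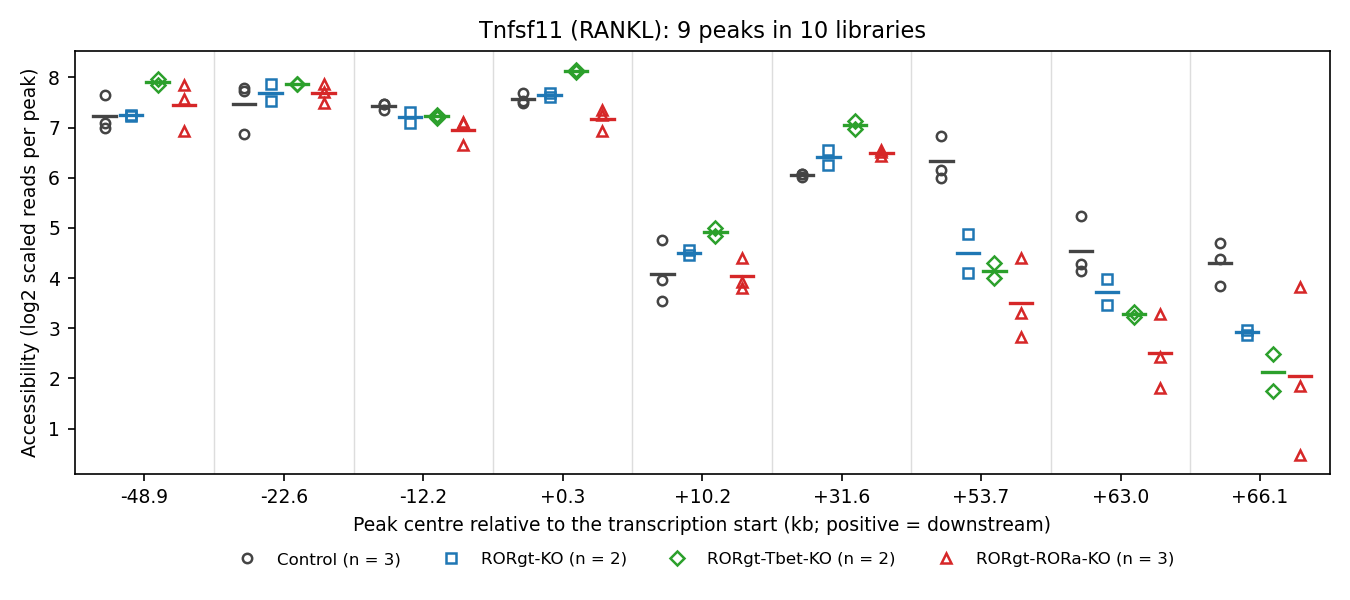
Accessibility (log2 scaled reads per peak, vertical axis) of Tnfsf11 peaks by distance of the peak centre from the transcription start (kb, positive = downstream). Open symbols are libraries and bars group means; at 53.7 kb downstream the controls lie at 6.00 to 6.83 and the knockout libraries at 2.82 to 4.87, whereas at the start site RORgt-Tbet-KO is the highest group and RORgt-RORa-KO the lowest.

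Ccl20 had the lowest level relative to Control when RORgt and RORa were both lost. Its single peak lies on chromosome 1, 83137879 to 83138659, 21.5 kb downstream of the start and 18712 bp past the end of the gene, and Daw1, the next protein-coding gene, starts 40575 bp from Ccl20. The values were 7.14, 7.29 and 6.74 for Control, 5.33 and 6.43 for RORgt-KO, 5.53 and 5.65 for RORgt-Tbet-KO, and 5.07, 4.28 and 4.01 for RORgt-RORa-KO. No knockout library reached the controls, and all 3 RORgt-RORa-KO libraries were below all others. Reads per library were 67 to 121 in Control and 11 to 24 in RORgt-RORa-KO. Group means were 7.06 ± 0.28 (SD, n = 3), 5.88 ± 0.78 (n = 2), 5.59 ± 0.09 (n = 2) and 4.45 ± 0.55 (n = 3).

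Against Control, the Ccl20 peak was 2.26-fold lower in RORgt-KO (-1.18, SE 0.34, limma adjusted p = 0.0216), 2.77-fold lower in RORgt-Tbet-KO (-1.47, SE 0.34, adjusted p = 0.00257) and 6.08-fold lower in RORgt-RORa-KO (-2.60, SE 0.31, adjusted p = 1.89e-07). It was the 1 peak of the 21 called between RORgt-RORa-KO and RORgt-KO, 2.69-fold lower (-1.43, SE 0.34, limma adjusted p = 0.0276), where 1.47% of all peaks were called. Against RORgt-Tbet-KO it was 2.20-fold lower (-1.14, SE 0.34, limma adjusted p = 0.0379). RORgt-Tbet-KO and RORgt-KO differed by -0.29, which did not pass (limma adjusted p = 0.81).

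The Ccl20 call of RORgt-RORa-KO against Control held in every alternative run. That of RORgt-KO against Control was lost without RORgt-KO replicate 1 (-0.63, limma adjusted p = 0.478), without Control replicate 1 (0.0682) or 2 (0.0925) and without the variance trend (0.0943). The call against RORgt-KO was lost without RORgt-KO replicate 2 (-0.88, limma adjusted p = 0.85), without RORgt-RORa-KO replicate 3 (0.0991), and under 5 other alternatives with adjusted p from 0.0575 to 0.19. The call against RORgt-Tbet-KO was lost without RORgt-Tbet-KO replicate 1 (limma adjusted p = 0.196) or 2 (0.285), without RORgt-RORa-KO replicate 2 (0.0772) or 3 (0.104), and under 6 other alternatives with adjusted p from 0.0577 to 0.153.

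Csf2 (minus strand of chromosome 11, 54247270 to 54249899) has Il3 at 15186 bp on one side and P4ha2 at 115602 bp on the other, and all but 1 of its 7 peaks lay downstream of the gene, toward P4ha2. Its distal sites did not move together: 1 was lower in every knockout, 1 was lower and 1 higher in RORgt-RORa-KO, and the site at the gene's start was called in none.

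The Csf2 peak 25.7 kb downstream (54223681 to 54224752) stood at 7.02, 6.86 and 6.98 for Control, 6.09 and 5.74 for RORgt-KO, 5.77 and 6.43 for RORgt-Tbet-KO, and 6.07, 5.68 and 5.60 for RORgt-RORa-KO. All knockout libraries were below the controls, with the knockout groups overlapping. It was 2.05-fold lower in RORgt-KO (-1.04, SE 0.27, limma adjusted p = 0.00909), 1.81-fold lower in RORgt-Tbet-KO (-0.85, SE 0.27, adjusted p = 0.0211) and 2.25-fold lower in RORgt-RORa-KO (-1.17, SE 0.24, adjusted p = 0.000364). The RORgt-KO call was lost without its replicate 2 (-0.86, limma adjusted p = 0.151). The RORgt-Tbet-KO call was lost without its replicate 1 (-0.52, limma adjusted p = 0.383), without Control replicate 1 (0.0572), without the variance trend (0.0504) and with thinned reads (0.122).

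At 33.5 kb downstream (54216182 to 54216642) the Csf2 values were 6.68, 6.25 and 6.32 for Control, 6.41 and 6.51 for RORgt-KO, 6.47 and 6.71 for RORgt-Tbet-KO, and 5.44, 6.03 and 5.43 for RORgt-RORa-KO. Only the RORgt-RORa-KO libraries lay below the range of the others. They were 1.72-fold lower than Control (-0.79, SE 0.24, limma adjusted p = 0.0114) and 1.94-fold lower than RORgt-Tbet-KO (-0.96, SE 0.26, adjusted p = 0.0217), while the difference from RORgt-KO, -0.83, did not pass (adjusted p = 0.13). The first call was lost without Control replicate 1 (limma adjusted p = 0.0682) or RORgt-RORa-KO replicate 1 (0.0524), and the second without either RORgt-Tbet-KO library (0.12 and 0.308), without RORgt-RORa-KO replicate 1 (0.0846) or 3 (0.0511) and without the variance trend (0.0663).

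The opposite order was seen at 41.1 kb downstream (54208545 to 54209013), with 5.66, 5.42 and 5.48 for Control, 5.57 and 6.08 for RORgt-KO, 4.67 and 5.36 for RORgt-Tbet-KO, and 6.24, 6.73 and 6.40 for RORgt-RORa-KO. There the RORgt-RORa-KO libraries were above all others and the RORgt-Tbet-KO libraries below all others. RORgt-RORa-KO was 1.91-fold higher than Control (0.93, SE 0.27, limma adjusted p = 0.00897) and 2.71-fold higher than RORgt-Tbet-KO (1.44, SE 0.30, adjusted p = 0.00236), the second of which was lost without RORgt-Tbet-KO replicate 1 (1.09, adjusted p = 0.155). RORgt-Tbet-KO differed from Control by -0.51 (limma adjusted p = 0.244) and RORgt-RORa-KO from RORgt-KO by 0.63 (adjusted p = 0.393).

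The peak nearest the Csf2 start (54249302 to 54249885) held 6.71, 6.62 and 6.51 for Control, 6.79 and 6.65 for RORgt-KO, 7.21 and 7.23 for RORgt-Tbet-KO, and 6.91, 6.18 and 6.97 for RORgt-RORa-KO. The RORgt-Tbet-KO libraries were the highest, with a difference from Control of 0.60 (SE 0.24) that missed the threshold (limma adjusted p = 0.0683) and passed it under 6 alternatives (0.0172 to 0.0428). At 35.0 kb downstream the values were 6.77, 6.25 and 7.31 for Control, 6.68 and 6.27 for RORgt-KO, 7.30 and 7.25 for RORgt-Tbet-KO, and 6.57, 6.28 and 6.70 for RORgt-RORa-KO. The controls there held both the lowest and the highest library, and no difference was called. The Csf2 peaks at 9.7 and 48.1 kb were also called in no comparison, with differences from Control between -0.33 and 0.54.

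**Figure D2:**
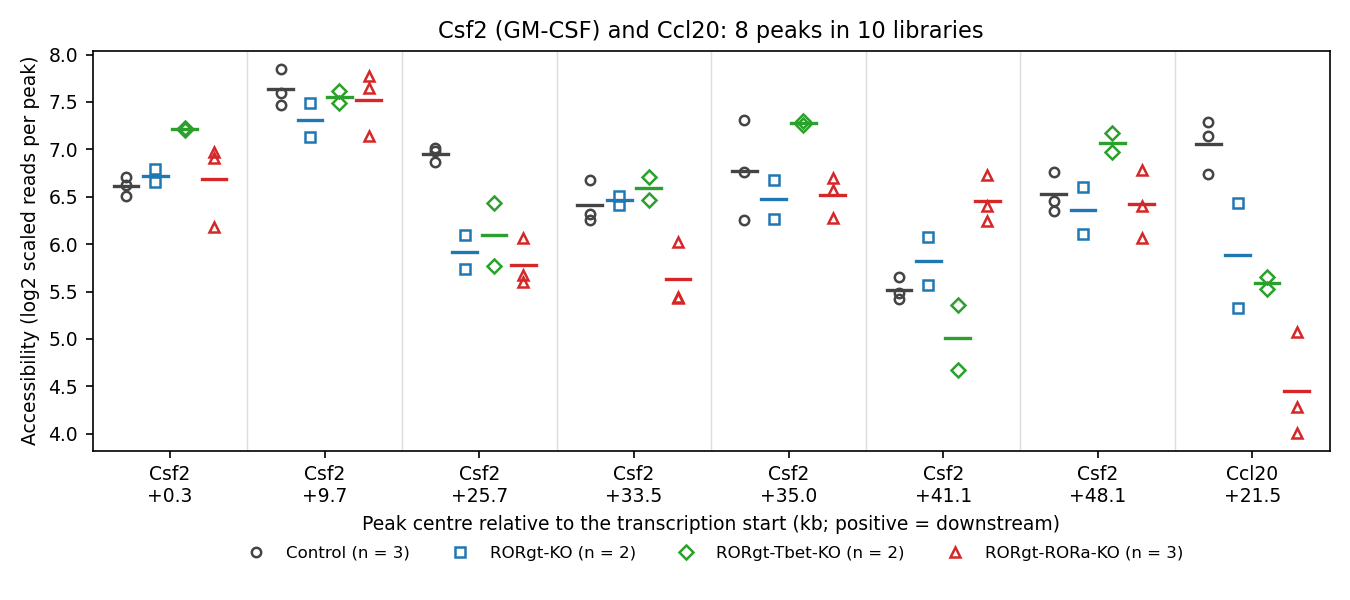
Accessibility (log2 scaled reads per peak, vertical axis) of Csf2 and Ccl20 peaks by distance of the peak centre from the transcription start (kb), with open symbols for libraries and bars for group means. At 25.7 kb from Csf2 and at the Ccl20 peak every knockout library lies below the controls, and at 41.1 kb from Csf2 the RORgt-RORa-KO libraries lie highest, at 6.24 to 6.73.

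Ltb, Tnf and Lta form one cluster on chromosome 17, between 35194507 and 35205578, with 3062 bp between Ltb and Tnf and 1158 bp between Tnf and Lta. None of its 4 peaks was called lower in any knockout. In RORgt-Tbet-KO 3 of the 4 rose, by 1.53- to 1.75-fold, where 11.3% of all peaks were called higher, and in RORgt-RORa-KO 1 rose, where 15.1% were. Each of the 3 RORgt-Tbet-KO calls was lost when either RORgt-Tbet-KO library was left out.

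The peak 5.4 kb upstream of the Lta start (35210162 to 35211353) stood at 6.64, 6.62 and 6.70 for Control, 7.03 and 6.86 for RORgt-KO, 7.13 and 7.47 for RORgt-Tbet-KO, and 7.29, 7.21 and 7.25 for RORgt-RORa-KO. Every knockout library was above every control, and both double knockouts were above both RORgt-KO libraries. It was 1.56-fold higher in RORgt-Tbet-KO (0.65, SE 0.21, limma adjusted p = 0.024) and 1.51-fold higher in RORgt-RORa-KO (0.60, SE 0.18, adjusted p = 0.0136), and RORgt-KO differed by 0.29 (adjusted p = 0.43). The RORgt-Tbet-KO call was lost without Control replicate 1 (limma adjusted p = 0.0525) or 2 (0.0534), without RORgt-Tbet-KO replicate 1 (0.0661) or 2 (0.33) and with thinned reads (0.13). The Lta start site itself, at 7.05, 7.02 and 7.17 for Control, 6.94 and 6.84 for RORgt-KO, 6.99 and 7.38 for RORgt-Tbet-KO, and 7.58, 7.01 and 7.32 for RORgt-RORa-KO, was called in no comparison. Its differences from Control were -0.18, 0.11 and 0.23 in the RORgt-KO, the RORgt-Tbet-KO and the RORgt-RORa-KO group.

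At the Ltb start (35194346 to 35195937) the values were 7.64, 7.50 and 7.77 for Control, 7.90 and 8.13 for RORgt-KO, 8.25 and 8.26 for RORgt-Tbet-KO, and 8.45, 7.46 and 8.20 for RORgt-RORa-KO. All knockout libraries were above the controls except RORgt-RORa-KO replicate 2. RORgt-Tbet-KO was 1.53-fold higher than Control (0.62, SE 0.22, limma adjusted p = 0.0406), while RORgt-KO (0.37, adjusted p = 0.305) and RORgt-RORa-KO (0.40, adjusted p = 0.123) did not pass. Without its replicate 2, the shallowest library, RORgt-RORa-KO differed by 0.69 (limma adjusted p = 0.0025).

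The Tnf peak lies inside the gene (35200479 to 35200796), 1.4 kb from the start, and stood at 6.37, 6.35 and 6.48 for Control, 6.66 and 6.46 for RORgt-KO, 7.08 and 7.33 for RORgt-Tbet-KO, and 7.07, 5.99 and 7.25 for RORgt-RORa-KO. RORgt-RORa-KO replicate 2 was again low, here the lowest of the 10. RORgt-Tbet-KO was 1.75-fold higher than Control (0.80, SE 0.27, limma adjusted p = 0.0342). RORgt-KO differed by 0.16 (adjusted p = 0.792) and RORgt-RORa-KO by 0.37 (adjusted p = 0.273), or by 0.76 without its replicate 2 (adjusted p = 0.00536). Ltb and Tnf had r = 0.873 over the 10 libraries.

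The Ltb and Tnf calls in RORgt-Tbet-KO lay near the threshold. With quantile normalization the limma adjusted p was 0.0755 for Ltb and 0.0589 for Tnf, without the variance trend 0.168 and 0.137, with thinned reads 0.0894 and 0.0914, without Control replicate 1 0.0802 and 0.0717, without Control replicate 2 0.124 and 0.0797, without RORgt-Tbet-KO replicate 1 0.181 and 0.103, and without its replicate 2 0.199 and 0.263. The Ltb call was also lost without RORgt-KO replicate 1 (limma adjusted p = 0.0548) or 2 (0.0547).

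**Figure D3:**
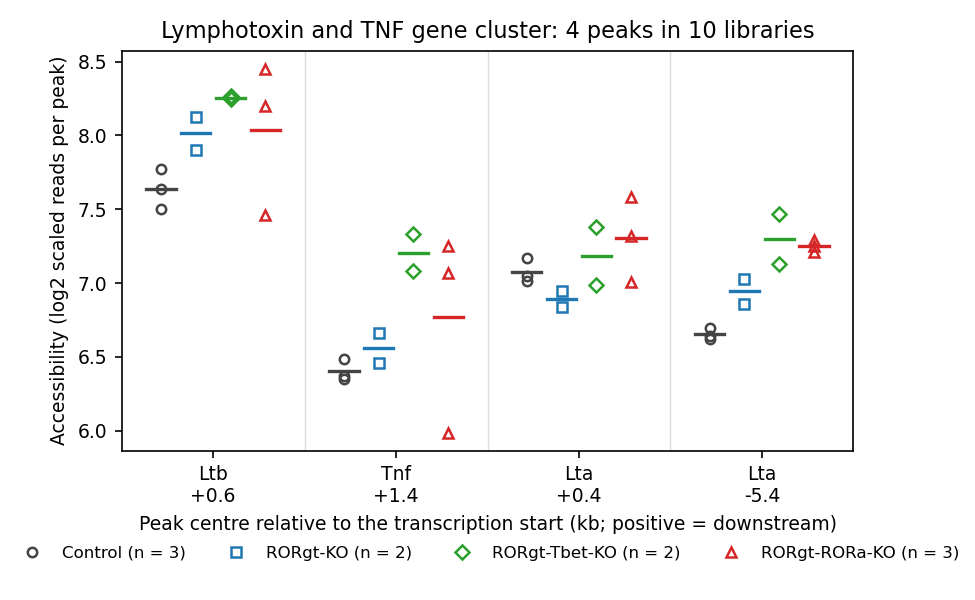
Accessibility (log2 scaled reads per peak, vertical axis) of the 4 peaks of Ltb, Tnf and Lta, with open symbols for libraries and bars for group means. The knockout libraries of the peak 5.4 kb upstream of Lta all lie above the controls, and 1 RORgt-RORa-KO library stands low at Ltb (7.46) and Tnf (5.99).

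The knockout groups differed from each other at few of these peaks. Between RORgt-Tbet-KO and RORgt-KO limma called 0 of the 21, where 1.14% of all peaks were called (0.965% lower), and 7 had an unadjusted p under 0.05. Of the alternatives, voom on the recovered reads also called 0, where 1.83% of all peaks were called. Library weights called 5, where 8.68% were, and a fit of only the 2 groups 6, where 9.22% were. Between RORgt-RORa-KO and RORgt-Tbet-KO 4 peaks were called, 1 higher and 3 lower, where 7.54% of all peaks were called (3.82% higher, 3.72% lower): the Tnfsf11 start site, the Csf2 peaks at 33.5 and 41.1 kb, and Ccl20. Without RORgt-Tbet-KO replicate 1, which left 1 library in that group, these calls were lost, and fewer of all peaks were called. With all libraries, the median difference over the 21 peaks in this comparison was -0.46, against -0.02 over all peaks.

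**Figure D4:**
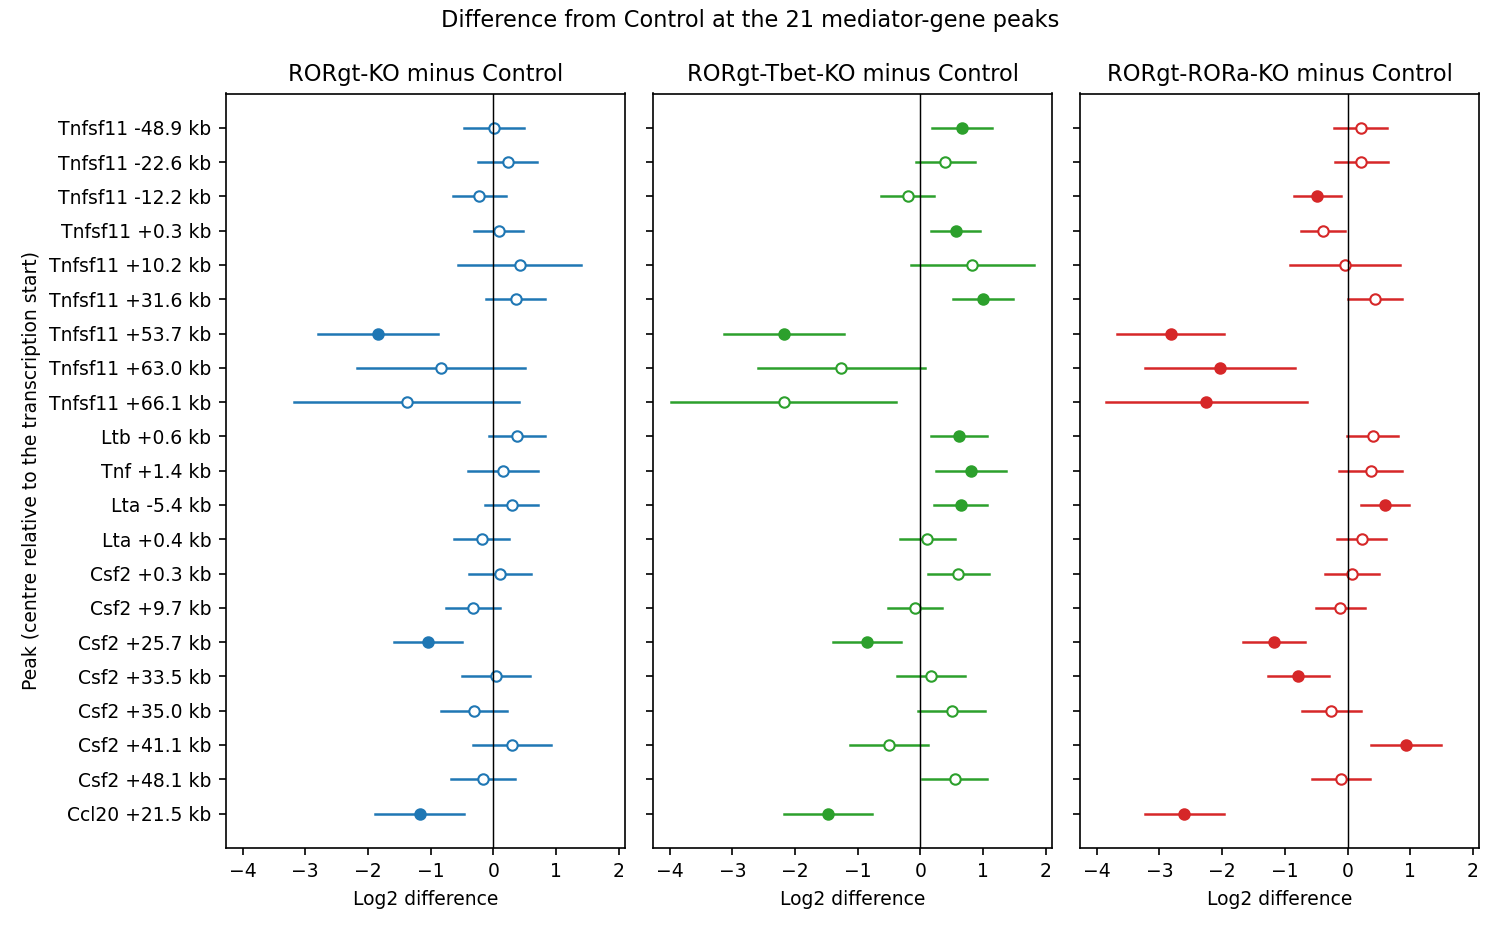
Log2 difference from Control of each member peak in each knockout group (points) with 95% intervals (lines), filled where limma's adjusted p was under 0.05. The Ccl20 peak and the Tnfsf11 peak 53.7 kb downstream lie left of 0 in all 3 knockouts, at -2.60 and -2.82 in RORgt-RORa-KO.

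Of 13 further peaks within 50 kb of the 6 genes that lie nearer to another gene, none in the lymphotoxin window was lower in a knockout. Higher there were peaks nearest Nfkbil1 and Aif1, by 0.60 to 0.99 on the log2 scale at Nfkbil1 and by 0.78 and 1.18 at Aif1, the latter in RORgt-RORa-KO. A peak nearest Daw1, in the window of Ccl20, was lower in RORgt-RORa-KO by -1.60. Upstream of Tnfsf11, 7 peaks lay 50 to 200 kb away and nearest to Akap11. Of these, 3 were higher in RORgt-Tbet-KO (0.87, 0.78 and 1.30), where 11.3% of all peaks were higher. In RORgt-RORa-KO 1 was higher (2.10), where 15.1% of all peaks were. None was lower in any knockout, where 7.12%, 11.3% and 16.1% of all peaks were lower. The peak with 2.10 held 0, 9 and 3 reads in the Control libraries, and that with 1.30 held 8 to 12, so both start from few reads.

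Peaks of the receptors for these mediators were found at 7 of 10 genes (35 peaks; none at Tnfrsf11b, Csf2rb or Csf2rb2). Genes with higher peaks only numbered 2, 3 and 4 in the RORgt-KO, the RORgt-Tbet-KO and the RORgt-RORa-KO group. Genes with lower peaks only numbered 1 in each, and 1 gene, Tnfrsf1b, had both in each. By peaks, 5, 9 and 10 of the 35 were higher and 2, 2 and 3 lower, beside 5.19%, 11.3% and 15.1% of all peaks higher and 7.12%, 11.3% and 16.1% lower. A peak in Tnfrsf11a (chromosome 1, 105784278), which codes for RANK, the receptor of RANKL, stood at 6.13, 6.10 and 5.58 for Control, 5.28 and 5.24 for RORgt-KO, 5.44 and 4.95 for RORgt-Tbet-KO, and 3.94, 3.40 and 3.16 for RORgt-RORa-KO. RORgt-RORa-KO was below every other library, by -2.43 from Control (SE 0.35, limma adjusted p = 3.72e-06). Its differences from RORgt-KO and RORgt-Tbet-KO were -1.76 and -1.69 (limma adjusted p = 0.014 and 0.00521). The peak held 6 to 11 reads per library in RORgt-RORa-KO and 30 to 54 in Control. Against Control it was not called in RORgt-KO or RORgt-Tbet-KO (limma adjusted p = 0.297 and 0.176). At least 1 other Tnfrsf11a peak was called lower in each of those 2 groups. The call against RORgt-KO was lost without either RORgt-KO library and that against RORgt-Tbet-KO without its replicate 1 (limma adjusted p up to 0.238 and 0.184). The first was also lost with voom, without the variance trend, with only the 2 groups in the fit and with thinned reads. A peak of Tnfrsf14, the receptor of LIGHT that also binds lymphotoxin alpha, rose by 2.24, 2.88 and 2.68 in the 3 knockouts (limma adjusted p = 0.00178, 6.53e-05 and 1.55e-05). This Tnfrsf14 peak lay 7011 bp from the gene. It held 3 to 7 reads per library in Control and 18 to 51 in the knockouts, so the rises start from few reads. A peak of Tnfrsf1b, the second TNF receptor, was higher by 1.62 in RORgt-RORa-KO (SE 0.22, limma adjusted p = 1.28e-06). In each knockout, Tnfrsf1b also had a peak called lower than Control.

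Genes of TRAF and non-canonical NF-kB signalling, which relays lymphotoxin beta receptor and RANK signals, had peaks at 9 of 9 genes (29 peaks). Here 2, 5 and 3 genes had higher peaks only in the 3 knockouts, and 1 gene, Birc3, had a lower one, in RORgt-RORa-KO. By peaks, 2, 7 and 4 of the 29 were higher, beside 5.19%, 11.3% and 15.1% of all peaks, so the RORgt-KO and RORgt-RORa-KO counts were near the background. Of these, a peak of Traf3, which restrains NIK, was higher by 1.12, 1.37 and 1.70 (limma adjusted p = 0.00856, 0.000938 and 7.98e-06), and one of Birc2, which codes for cIAP1, by 1.19, 1.17 and 1.61 (adjusted p = 0.0131, 0.00947 and 8.09e-05). Without Control replicate 1 the RORgt-KO calls of both genes and the RORgt-Tbet-KO call of Birc2 were lost, as were the RORgt-KO calls of both without RORgt-KO replicate 1, that of Birc2 without RORgt-KO replicate 2, and the RORgt-Tbet-KO call of Birc2 without its replicate 2 (limma adjusted p up to 0.216). Without the variance trend the RORgt-KO calls of both genes were lost as well. A peak of Map3k14, which codes for NIK, differed by 0.35 in RORgt-KO (limma adjusted p = 0.587) and rose by 1.08 in RORgt-Tbet-KO (adjusted p = 0.0205) and by 1.33 in RORgt-RORa-KO (adjusted p = 0.00104). The RORgt-Tbet-KO call of Map3k14 was lost without Control replicate 2 or RORgt-Tbet-KO replicate 2, or without the variance trend (limma adjusted p up to 0.306).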

How the data were processed

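ATAC-seq libraries were trimmed with Trim Galore 0.62 and aligned with Bowtie2 2.3.5.1 to GRCm38, and SAMtools and MACS2 were also used, per the submitters' processing notes. Pooling for peak calling, treatment of duplicates, the Tn5 shift and whether peak starts count from 0 or 1 were not given in the sources used here. For 36262 peaks in 10 libraries the authors deposited log2 scaled values. The steps between low values gave whole reads within 0.01 for 100% of values, an empty peak standing at 0.9 read. The deposited scaling differed from median-of-ratios size factors by at most 0.00016 on the log2 scale. Counts of reads cover counting error only. After 11 peaks on Y were left out, 36251 entered limma 3.58.1 (R 4.3.3; variance trend, 4 groups in 1 fit, 6 contrasts and an F test, 6 residual degrees of freedom). Genes came from the RefSeq table of GRCm38.p6. Distances use the peak centre and the RefSeq start.

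On simulated data with 200 of 36251 peaks changed, 2-fold changes were recovered at 38%, 30% and 37% and 4-fold changes at 83%, 84% and 83% for the RORgt-KO, the RORgt-Tbet-KO and the RORgt-RORa-KO group against Control, with 3, 5 and 8 false calls. Only peaks above a minimum mean read count were changed, so the rates do not cover the Tnfsf11 peaks at 63.0 and 66.1 kb. Far fewer peaks were changed than the 12.3% to 31.2% called in the data, so the rates do not describe the real fit. Values in every library are given for the peak nearest each gene and for up to 4 peaks per gene with the smallest F test p. From each pathway list, up to 3 genes with the smallest adjusted p are named. The members, lists, markers and motifs were chosen with earlier results of these data known. Alternatives were another scaling, voom, no trend, a minimum of 10 reads, a pseudocount of 8 reads, library weights, a replicate block, a fit of 2 groups, windows of 10 and 200 kb, every peak within 50 kb and each library left out. Scaling on 8487 start-site peaks and thinning to 2271585 reads were added after seeing the data.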

Additional observations from a re-analysis of the deposited data

How the results depend on the processing

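No difference changed sign among the called differences of the peaks described, and 452 of 545 values under an alternative kept their side of the threshold while 93 lost the call. Of 1591 such values for differences that were not called, 38 passed. The counts of the 21 peaks called moved by over 1.5 times as follows; the cause was not tested. For RORgt-RORa-KO against RORgt-KO (1 called) the count was 0 with voom, without the variance trend, with only the 2 groups, with start-site scaling and with thinned reads, and 2 with library weights. For RORgt-RORa-KO against RORgt-Tbet-KO (4) it was 2 without the trend and 7 with library weights. For RORgt-Tbet-KO against RORgt-KO (0) it was 5 with library weights (8.68% of all peaks called) and 6 with only the 2 groups (9.22%). For RORgt-Tbet-KO against Control (9) it was 4 without the trend. With quantile normalization and with thinned reads that count was 6 (3 higher and 3 lower), a change of 1.5 times and not over it. The F test (9) gave 15 with library weights and 14 with a replicate block. A 10 kb window, which holds only 9 peaks, gave 0, 5 and 1 against Control for the RORgt-KO, the RORgt-Tbet-KO and the RORgt-RORa-KO group, 0 and 1 for RORgt-RORa-KO against RORgt-KO and RORgt-Tbet-KO, and 3 for the F test. Every peak within 50 kb (34) gave 15 for RORgt-RORa-KO against Control, and the 200 kb window added 0 peaks.

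Leaving out 1 library at a time gave 1 to 3 calls for RORgt-KO, 2 to 11 for RORgt-Tbet-KO and 5 to 10 for RORgt-RORa-KO against Control, 0 to 0 for RORgt-Tbet-KO against RORgt-KO, 0 to 2 for RORgt-RORa-KO against RORgt-KO, 0 to 5 for RORgt-RORa-KO against RORgt-Tbet-KO, and 6 to 12 for the F test. RORgt-KO against Control fell to 1 without Control replicate 1 or RORgt-KO replicate 2. RORgt-Tbet-KO against Control fell to 5 without Control replicate 1, 4 without Control replicate 2, and 2 and 4 without RORgt-Tbet-KO replicates 1 and 2. RORgt-RORa-KO against Control fell to 5 without Control replicate 1. RORgt-RORa-KO against RORgt-Tbet-KO fell to 0 and 2 without RORgt-Tbet-KO replicates 1 and 2. Over all peaks, the number called ranged from 1711 to 5832, 3359 to 12468 and 9082 to 12177 for the RORgt-KO, the RORgt-Tbet-KO and the RORgt-RORa-KO group against Control over these settings, and from 91 to 3341, 45 to 1212 and 967 to 6272 between the knockouts in the order above.

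For the pathway lists, peaks called higher and lower against Control ranged over the settings as follows. The receptors gave 1 to 6 and 1 to 2 in RORgt-KO, 2 to 12 and 1 to 3 in RORgt-Tbet-KO, and 6 to 12 and 2 to 3 in RORgt-RORa-KO. The TRAF and NF-kB genes gave 0 to 2 and 0 to 1, 1 to 11 and 0 to 1, and 3 to 6 and 0 to 2. The other ligands gave 1 to 6 and 0 to 3, 3 to 12 and 1 to 4, and 15 to 18 and 4 to 7.

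Same-numbered libraries had correlations of their deviations from the group mean between -0.121 and 0.143 over 13 pairs. In a group of 2 the deviations mirror each other, so these pairs are not independent. Whether the numbers pair the libraries could not be decided this way. With the number as a replicate block, 3, 12, 9, 0, 1 and 5 peaks were called in the 6 contrasts (3, 9, 9, 0, 1 and 4 without it) and 14 by the F test. Depth limits the 3 outer Tnfsf11 peaks, where the lowest library holds 1, 2 and 4 reads. The median log2 difference from Control over all peaks lay between -0.02 and 0.06 under the 4 scalings.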

Other observations

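Among the other ligands of the TNF superfamily, 10 of 13 genes had a peak (40 peaks). Called higher and lower were 5 and 2 in RORgt-KO (5.19% and 7.12% of all peaks), 9 and 3 in RORgt-Tbet-KO (11.3% and 11.3%) and 17 and 5 in RORgt-RORa-KO (15.1% and 16.1%). A peak of Fasl, the ligand of the death receptor Fas, was higher by 2.27 in RORgt-RORa-KO (limma adjusted p = 2.71e-08). The same peak did not pass in RORgt-KO (0.77, limma adjusted p = 0.0558) or RORgt-Tbet-KO (0.68, adjusted p = 0.0646). In both of these groups, however, Fasl had at least 1 other peak called higher. One of Tnfsf18, the ligand of GITR, was higher by 0.89, 1.51 and 1.88 in the RORgt-KO, the RORgt-Tbet-KO and the RORgt-RORa-KO group (limma adjusted p = 0.0457, 0.000475 and 2.96e-06). The first of these 3 calls was lost under 12 of 21 alternatives, among them leaving out Control replicate 2 or 3, either RORgt-KO library, either RORgt-Tbet-KO library or RORgt-RORa-KO replicate 1 (limma adjusted p up to 0.362). One of Cd40lg was higher by 2.34 in RORgt-RORa-KO (limma adjusted p = 2.45e-05) and by 2.67 over RORgt-Tbet-KO (adjusted p = 0.000104). In RORgt-Tbet-KO this peak differed from Control by -0.32 (limma adjusted p = 0.639), but at least 1 other Cd40lg peak was called higher there. The T cell marker list also had its highest summed level in RORgt-RORa-KO (106 to 121 RPM against 80.2 to 84.2 in Control). Its genes went both ways there: of 7 peaks 3 were called higher and 2 lower. Cd3d and Cd3e had higher peaks only, Cd5 lower only and Cd28 both. The part of this list was not tested.

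The peaks on other chromosomes most like each gene's leading peak, picked as the highest correlations over the 10 libraries among all peaks, are given as a description. For the Ccl20 peak they were nearest Acot11 (r = 0.992), Fat3 (0.982) and Slc1a4 (0.978). For the Tnfsf11 peak at 53.7 kb they were nearest Pcbp3 (r = 0.981), Gramd4 (0.977) and Gm11541 (0.975). For the Csf2 peak at 25.7 kb they were nearest Ostf1 (r = 0.966), Gls2 (0.965) and Il22 (0.963), the last 13890 bp from the gene of this cytokine of group 3 cells. For the peak upstream of Lta they were nearest Anp32a (r = 0.985), Rps6ka1 (0.974) and Cmip (0.973), for Ltb Eif4a1 (0.965), Dop1b (0.965) and Cbarp (0.963), and for Tnf Sesn2 (0.986), Podnl1 (0.980) and Actr1a (0.976). These libraries share the group differences and their depth.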
